A study of Mus musculus with 3 samples.

Results

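This report covers the comparison of the suprarenal aorta between angiotensin II-infused mice that formed a dissecting abdominal aortic aneurysm (AngII AAA) and angiotensin II-infused mice that did not (AngII No AAA). Its members are the 600 entries in the authors' list of differences between those cohorts, out of 1238 different entries listed over the 3 comparisons of the series. AngII AAA vs. Saline lists 715 and AngII No AAA vs. Saline lists 564. The members were taken as listed, with no further choice by value. An entry is 1 gene in all but 2 cases, where several genes share an entry, and entries are called genes below.

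All 3 cohorts were male apoE null mice on the C57BL/6 strain (C57BL/6J in the study's methods), operated on at 12 weeks of age. AngII AAA and AngII No AAA mice carried pumps with angiotensin II, and Saline mice carried pumps with saline. Dissecting aneurysms were collected within 24 hours of their diagnosis, whereas AngII No AAA and Saline aortas were collected 10 days after pump implantation. The presence of a lesion and the day of harvest therefore cannot be told apart. Each cohort gave 1 library, from RNA that was pooled in equal amounts over several animals, and the spread between animals was not measured. The sample labels give 35000000 to 43000000 reads per library. The values are FPKM (fragments counted on a transcript, scaled to its length and to the mapped reads of the library). This scaling lets levels be set side by side between genes and between libraries, within limits. A value is a share of its library, so it also depends on the other genes there. Division by length makes the values of very short genes uncertain.

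Angiotensin II is a peptide hormone that raises blood pressure and drives inflammation of the vessel wall. Mice without apolipoprotein E have high plasma cholesterol, and under angiotensin II some of them tear the inner layers of the suprarenal aorta, so that blood enters the wall and a thrombus forms there. The aortic media is made of smooth muscle cells, which carry a contractile apparatus of actin and myosin, between sheets of elastin. Neutrophils and monocytes are the first leukocytes to enter injured tissue, and they release proteases that can cut elastin and collagen.

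The authors listed a gene where their test between the 2 libraries gave an unadjusted p-value under 0.05. With 1 library per cohort, no test across animals could be made, and none is given below. Ratios were recomputed from the FPKM values. A gene listed at 0 FPKM in a library has no finite ratio and was counted on the side of the other library. A difference of at least 4-fold, or a value of 0 in 1 library, was counted as a large difference. Pairs of values below give AngII No AAA first and AngII AAA second.

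Most of the listed genes were higher in the aneurysms. There were 474 genes with a higher value in AngII AAA (79.0%) and 126 with a lower value (21.0%). A large difference was found for 189 higher genes (31.5%) and for 38 lower genes (6.33%). These 4 shares are the background against which the gene groups below are read. The median log2 ratio over the 584 genes with 2 values above 0 was 1.63. The smallest higher ratio was that of Rassf2, a Ras association domain protein, at 11.2 and 25.9 FPKM (2.30-fold). The smallest lower ratio was that of Trabd2b, a Wnt-cleaving protease, at 16.96 and 7.33 FPKM (2.32-fold). Genes inside these limits are not in the list.

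**Figure D1:**
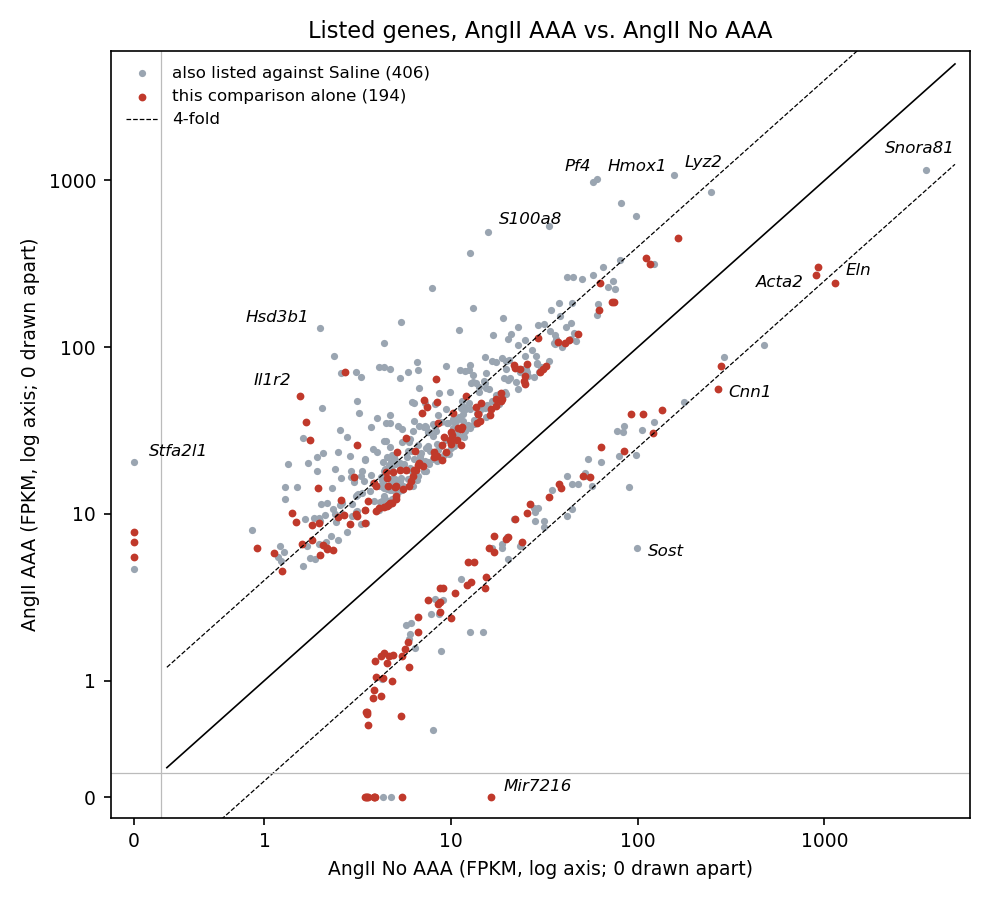
FPKM of the 600 listed genes in AngII No AAA (horizontal, log axis) and AngII AAA (vertical, log axis), 1 point per gene, with genes listed for this comparison alone in red and values of 0 drawn apart. The solid line marks equal values and the dashed lines mark 4-fold. The 474 higher genes lie above the solid line and the 126 lower genes below it, with an empty band between them because the list holds no gene under 2.30-fold.

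The largest finite higher ratio was that of Hsd3b1, a steroid dehydrogenase of the adrenal cortex, at 1.99 and 129.8 FPKM (65.2-fold). At the other end stood Sost, an inhibitor of Wnt signalling, at 99.01 and 6.27 FPKM (15.8-fold lower). Among the listed genes, the 5 with the most FPKM in AngII AAA were Snora81 (a small nucleolar RNA), Lyz2 (lysozyme), Hmox1 (haem oxygenase 1), Pf4 (platelet factor 4) and Ftl1 (ferritin light chain). The 5 with the most FPKM in AngII No AAA were Snora81, Eln (elastin), Acta2 (smooth muscle actin), Tagln (transgelin) and Mfap4 (a microfibril protein). Of the listed genes Snora81 was the highest in both libraries, at 3515 and 1158 FPKM. The other 4 of each set differed: phagocyte, iron and platelet genes in AngII AAA, and elastin, microfibril and contractile genes in AngII No AAA. Unlisted genes may have higher levels in either library.

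The direction of the difference varied with the level of the gene. Of the 29 genes with under 5 FPKM in the higher library, 3 were higher and 26 were lower in AngII AAA. From 5 to 10 FPKM, 43 were higher and 26 lower. From 10 to 20 FPKM the numbers were 120 and 18, and from 20 to 50 FPKM they were 170 and 25. At 100 FPKM and over, 63 were higher and 14 lower. Lower genes thus made up 89.7% of the faintest group and 12.8% of the group from 20 to 50 FPKM. Of the 38 large lower differences, 19 were in the faintest group.

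**Figure D2:**
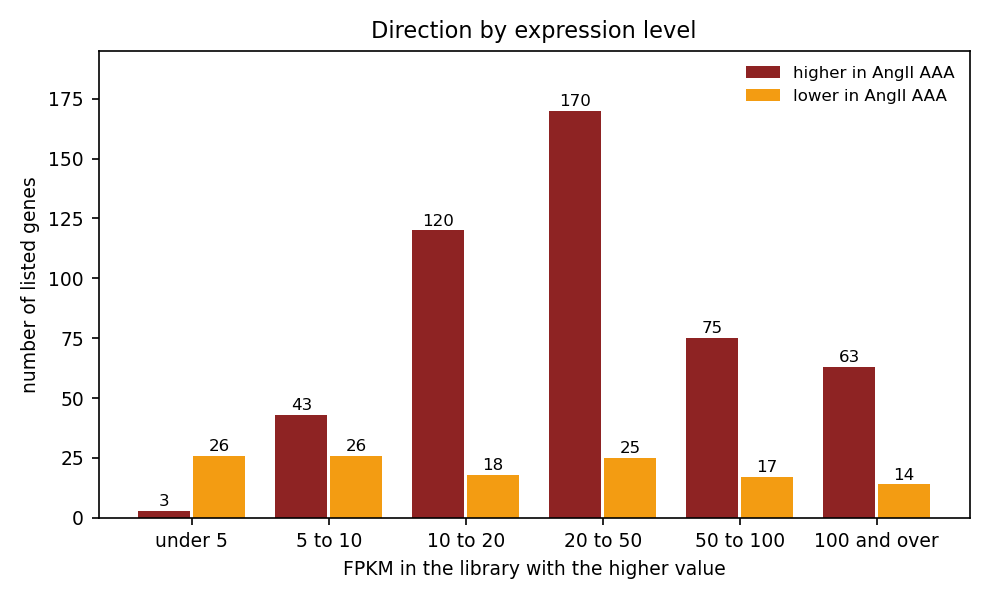
Number of listed genes higher (dark red) and lower (orange) in AngII AAA, by the FPKM of the library with the higher value. Lower genes outnumber higher ones only under 5 FPKM, by 26 to 3, and higher genes lead in the 5 other groups.

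Of the 600 genes, 194 stood in the list of this comparison and in neither list against Saline. Another 303 were listed against Saline for AngII AAA, 20 were listed against Saline for AngII No AAA, and 83 were in all 3 lists. Of the 194, 123 (63.4%) were higher and 71 were lower in AngII AAA, against 79.0% and 21.0% over the whole list. Large differences were found for 27 of the 123 and for 24 of the 71. A gene missing from a list did not pass the authors' threshold there or was not tested, and its Saline level could not be read here. Absence from a list is therefore no finding of equal levels. By real-time PCR, the paper reports higher levels of the cytokine gene Il1b in AngII AAA than in Saline. It also reports the elastin gene Eln as higher in AngII No AAA than in Saline. The collagen gene Col4a3 was reported as lower in AngII AAA than in Saline. The comparisons share libraries, so membership in a second list is not a separate measurement.

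The largest finite higher ratio among the 194 was that of Il1r2, a decoy receptor that captures interleukin 1. Il1r2 measured 1.54 and 50.99 FPKM (33.1-fold). Il1b, which encodes interleukin 1 beta itself, measured 3.12 and 25.9 FPKM (8.30-fold). Both the cytokine and its decoy receptor were thus faint in AngII No AAA, and the decoy receptor was the higher of them in AngII AAA. Chil3, a chitinase-like protein secreted by activated macrophages, measured 2.69 and 71.4 FPKM (26.5-fold). Cxcl5, a chemokine that attracts neutrophils, measured 1.75 and 27.7 FPKM (15.8-fold). Akr1b7, an aldo-keto reductase of the adrenal cortex, measured 1.66 and 35.5 FPKM (21.4-fold).

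The other large higher ratios in this group came from several functions. The linker histone gene Hist1h1a measured 8.34 and 64.7 FPKM, and the core histone genes Hist1h3a, Hist1h4f and Hist1h3g were each 5.58- to 5.90-fold higher. Alox12, the platelet 12-lipoxygenase, measured 1.94 and 14.3 FPKM. Tfec, a transcription factor related to Mitf, measured 1.40 and 10.1 FPKM. These are leukocyte, platelet and chromatin genes with low values in AngII No AAA. AA467197 measured 7.12 and 48.00 FPKM, Rdh12, a retinol dehydrogenase, 1.48 and 8.92 FPKM, and Ly6g6c, a small surface protein of the Ly6 family, 3.02 and 16.7 FPKM. All 15 were at least 5.54-fold higher, and 10 of them reached at least 20 FPKM in AngII AAA.

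The 15 largest finite lower ratios among the 194 were of another kind, since 11 of them stayed under 6 FPKM in both libraries. Only Eln and Cnn1 reached at least 20 FPKM. Eln, which encodes the elastin of the medial sheets, measured 1144 and 242 FPKM (4.73-fold lower). Cnn1, the actin-binding protein calponin of contractile smooth muscle, measured 269.7 and 56.2 FPKM (4.80-fold lower). Adamts8, a metalloprotease, measured 15.3 and 3.57 FPKM. Elastin and calponin were thus the abundant wall genes among them.

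The remaining 12 had low levels in both libraries. Chmp4c, a subunit of the ESCRT-III membrane-cutting complex, measured 9.95 and 2.36 FPKM. Col4a3, a basement membrane collagen chain, measured 3.80 and 0.786 FPKM. Pnoc, the nociceptin precursor, measured 5.91 and 1.21 FPKM. The others were the dopamine receptor gene Drd1, the homeobox gene Lhx9, the ubiquitin ligase gene Trim71, the retinal genes Samd7 and Rp1l1, and Pgbd1, Vax2os, 9330102E08Rik and 1700003D09Rik, at 3.51 to 5.37 FPKM in AngII No AAA and 0.542 to 1.03 FPKM in AngII AAA. The largest ratio of the 15, 8.82-fold lower, was that of 1700003D09Rik. The depth of single values could not be read from FPKM, so the precision of these ratios is unknown.

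A value of 0 in 1 of the 2 libraries was listed for 16 genes. Of these, 5 were listed at 0 in AngII No AAA and 11 at 0 in AngII AAA. Among the 5, Stfa2l1, a stefin A-like cysteine protease inhibitor of neutrophils, measured 20.4 FPKM in AngII AAA. Sprr1a, a small proline-rich protein of the cornified envelope, measured 6.78 FPKM there, and Ly6g6d, a Ly6 family surface protein, 4.66 FPKM. LOC100038947 measured 7.74 FPKM and Gm9733 measured 5.47 FPKM. Stefin A genes form a family of near-identical copies, and reads can be shared between such copies. Ly6g6d also had 5.77 FPKM in the Saline library, so its 0 set AngII No AAA apart and not the aneurysm.

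The 11 genes listed at 0 in AngII AAA had 3.47 to 16.3 FPKM in AngII No AAA, with a median of 3.88 FPKM. Mir7216, a microRNA precursor gene, was the highest at 16.3 FPKM, but its hairpin is only 76 bases long, so this value is uncertain. Gm35612 measured 5.43 FPKM, BC039966 4.76 FPKM and 1700064J06Rik 4.29 FPKM. The named coding genes of this set were the forebrain homeobox gene Emx1 (3.53 FPKM), the relaxin family hormone gene Rln3 (3.49 FPKM) and the olfactory receptor gene Olfr1504 (3.93 FPKM). The other 4 were 1600019K03Rik, 1700013D24Rik, 1700113B09Rik and Gm8013, all between 3.47 and 3.88 FPKM. All but Mir7216 stayed under 6 FPKM, and 9 of the 11 were listed for this comparison alone, against 3 of the 5 listed at 0 in AngII No AAA. Predicted, Rik and olfactory receptor symbols, a family picked after the values were seen, made up 20 listed genes, of which 7 were higher and 13 lower.

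Mir7216, Mir223 and Mir143hg were the listed entries that carry a microRNA name. Mir143hg, the host gene of microRNAs that are abundant in smooth muscle, measured 122 and 35.5 FPKM (3.43-fold lower), and its Saline level was above both, at 132 FPKM. Mir223 shared its entry with F630028O10Rik, the gene it lies in, at 1.34 and 19.8 FPKM (14.7-fold higher). MiR-223 is a microRNA of the myeloid lineage that restrains neutrophil activation. Libraries of total RNA read the precursor or its host transcript, and the level of the mature arms was not measured. The mature sequences below are from RefSeq (GRCm38.p6), and are shown for Mir223 and Mir7216, whose entries differed in opposite directions. Capitals mark the seed, bases 2 to 8, which pairs with target messages.
mmu-miR-223-3p: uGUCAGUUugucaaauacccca
mmu-miR-223-5p: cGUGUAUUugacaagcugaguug
mmu-miR-7216-3p: uGGAAUUUggucuuuuccggc
mmu-miR-7216-5p: uGGAGAGCuggcagaggacccaga
None of the 4 arms shared a seed with another.

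The neutrophil markers that were listed were all higher in the aneurysms. Of 35 neutrophil markers, 14 were listed, and 13 of these had a large difference, against 31.5% of all listed genes. Their median log2 ratio was 4.12, against 1.63 over the list. This and the other gene lists were written with earlier results of these data known. Such shares and medians therefore only describe the listed members and are no separate support. S100a8 and S100a9 encode the subunits of calprotectin, an abundant protein of the neutrophil cytosol. S100a8 measured 15.8 and 487 FPKM (30.8-fold), and S100a9 measured 12.6 and 365 FPKM (28.8-fold). Csf3r, the receptor of the growth factor G-CSF, measured 4.35 and 105 FPKM. Mmp9, a gelatinase stored in neutrophil granules, measured 4.70 and 73.6 FPKM (15.7-fold). These genes were low in AngII No AAA and among the more abundant listed genes in the aneurysm. Lcn2, an iron-binding granule protein, differed least, at 61.2 and 181 FPKM (2.97-fold). Clec4d, a C-type lectin receptor, measured 4.35 and 75.8 FPKM.

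The neutrophil genes beyond these 6 were Itgam, Il1r2, Cxcr2, Mmp8, Pram1, Slfn4, Stfa2l1 and Trem1, with 10.6 to 72.5 FPKM in AngII AAA. Summed over the 14 listed members, the neutrophil markers came to 129 FPKM in AngII No AAA and 1594 FPKM in AngII AAA. In bulk tissue, more cells of a type and more RNA per cell cannot be told apart, and this holds for every cell type named here. For 13 of the 14 the Saline level could be read, and the Saline sum was 67.6 FPKM beside 127 and 1543 FPKM for the same genes. Saline was the lowest of the 3 libraries for 8 of these 13 and lay above AngII No AAA for 4, and Stfa2l1 was listed at 0 in both. All but Il1r2 were also listed against Saline.

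Monocyte and macrophage markers were the most fully listed cell type, with 26 of 35, and all 26 were higher in AngII AAA. Large differences were found for 20 of the 26, and the median log2 ratio was 2.39. Lyz2, which encodes lysozyme, measured 156 and 1073 FPKM (6.88-fold). Cd68, a lysosomal membrane protein of macrophages, measured 57.3 and 269.6 FPKM (4.70-fold). Arg1, the arginase of alternatively activated macrophages, measured 7.85 and 226 FPKM (28.8-fold). Arg1 and Chil3, genes of alternative activation, had the largest ratios of the 26. Mrc1, another such gene, lay near the low end at 16.2 and 42.4 FPKM, a log2 ratio of 1.39. These genes thus had no common size of difference, and Mrc1 was named after its value was seen. Csf1r, the receptor for the macrophage growth factor CSF1, measured 27.03 and 96.2 FPKM (3.56-fold). Ctss, the elastin-cutting protease cathepsin S, measured 37.8 and 184 FPKM, and Mpeg1, the pore-forming protein perforin 2, 16.8 and 119 FPKM. The smallest ratio of the 26 was that of Adgre1, the F4/80 antigen of resident macrophages, at 6.51 and 16.2 FPKM (2.48-fold), a gene given here after its value was seen.

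The listed macrophage markers summed to 454 and 2785 FPKM. For the 23 with a readable Saline level the sums were 181 FPKM in Saline, 437 FPKM in AngII No AAA and 2653 FPKM in AngII AAA, and Saline was the lowest library for all 23. The macrophage genes that could be read thus followed the order Saline, AngII No AAA, AngII AAA without an exception. Saline was read mostly through AngII AAA vs. Saline, which favours Saline levels far from AngII AAA. Of 13 neutrophil genes, 4 had a higher value in Saline than in AngII No AAA. For Pram1, Cxcr2 and S100a8 the gap was small, at 2.79 against 2.55, 3.47 against 3.13 and 18.3 against 15.8 FPKM. For S100a9 it was larger, at 21.8 against 12.6 FPKM. None of these 4 passed the authors' threshold between Saline and AngII No AAA. Whether the order differs between the cell types was not tested.

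**Figure D3:**
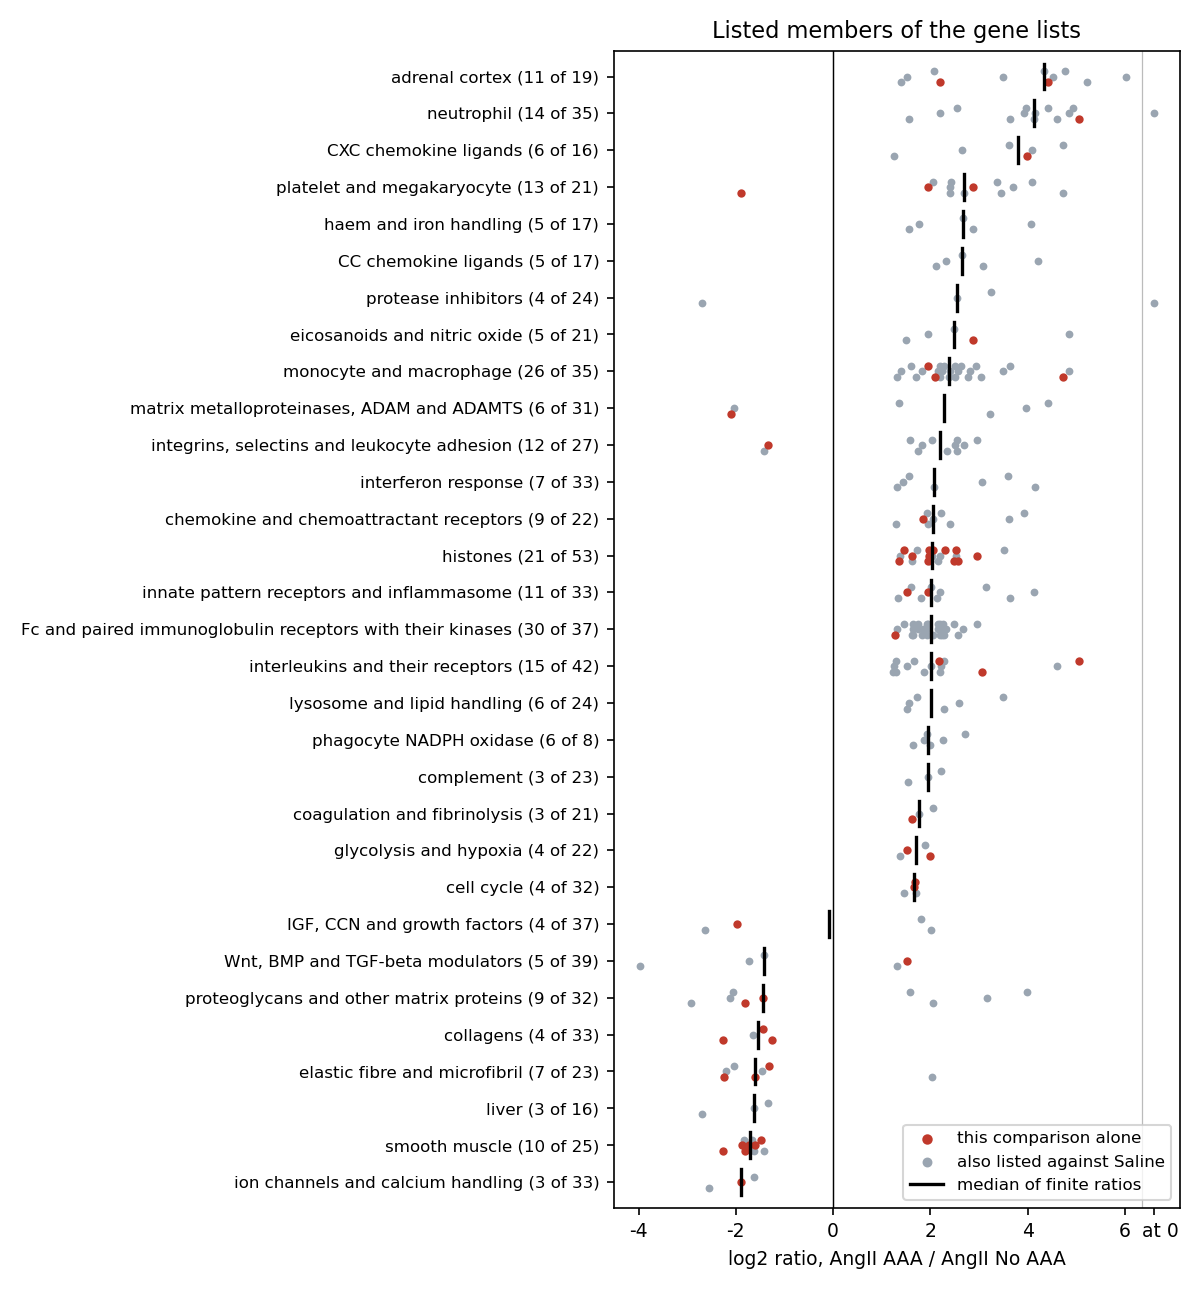
Log2 ratio of AngII AAA to AngII No AAA for the listed members of each gene list with at least 3 of them (number listed of number in the list in brackets), 1 point per gene, with genes of this comparison alone in red, the black bar at the median of finite ratios and genes listed at 0 in AngII No AAA drawn at the right edge. Adrenal cortex and neutrophil genes lie farthest to the right, and smooth muscle, liver and most elastic fibre genes lie to the left of 0.

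The receptors and kinases through which phagocytes read antibodies and surface ligands were listed almost in full. Fc receptors and paired immunoglobulin-like receptors signal through adaptors such as Fcer1g and Tyrobp, whose tyrosine motifs are phosphorylated by Src family kinases and then bind Syk. Of the 37 genes of this group, 30 were listed, all 30 were higher, and 15 had a large difference, with log2 ratios from 1.27 to 2.97. Fcer1g measured 41.5 and 265 FPKM (6.38-fold), and Tyrobp measured 19.02 and 149 FPKM (7.83-fold). Fcgr3, an activating IgG receptor, measured 34.3 and 168 FPKM (4.89-fold). Fcgr2b, the inhibitory IgG receptor, measured 28.5 and 88.9 FPKM (3.12-fold). These receptors, activating and inhibitory, thus differed in the same direction. Sirpa, which restrains phagocytosis of cells that carry CD47, measured 28.9 and 78.9 FPKM, and Rac2, a GTPase of leukocytes, 12.8 and 61.3 FPKM. Plcg2, a phospholipase downstream of Syk, had the smallest ratio of the group and was its only member listed for this comparison alone. Saline was the lowest library for all 29 members whose Saline level could be read. All 29 were listed for AngII AAA vs. Saline, so a Saline level far from AngII AAA follows from how they were chosen. The Pira, Pirb, Fcgr and Trem genes lie in families of similar copies, and reads shared between copies could not be separated.

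A short motif recognised by PU.1, the transcription factor of phagocytes encoded by Spi1, was looked for in the promoters of the listed genes. Spi1 itself measured 13.05 and 67.7 FPKM (5.19-fold). RefSeq (GRCm38.p6) windows from 250 bases before to 50 bases after the start were at hand for 430 of the 600 genes. The letters GAGGAAGT, on either strand, were in the windows of 34 of 333 higher genes (10.2%) and of 1 of 97 lower genes (1.03%), against 997 of all 27025 genes with a window (3.69%). Among the genes listed for this comparison alone, the motif was in 5 of 80 higher and 0 of 55 lower genes. It was present in 5 of 24 Fc receptor and kinase genes with a window, in 3 of 13 neutrophil genes and in 3 of 16 macrophage genes. By contrast CCAAT, a general promoter motif, was in 35.1% of higher and 36.1% of lower genes, and TATAAA was in 17.7% and 7.22%, against 41.1% and 15.7% of all genes. A match describes the letters only, and binding of the factor was not measured.

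The promoters of 5 phagocyte genes with the motif are shown as examples from the neutrophil, macrophage and Fc receptor groups, with the motif in capitals (it reads ACTTCCTC where it lies on the strand opposite to the gene). All are on the plus strand of GRCm38.p6: S100a8 at chr3:90668821-90669120, Mmp8 at chr9:7558179-7558478, Ctss at chr3:95526536-95526835, Fcgr4 at chr1:171018676-171018975 and Vav1 at chr17:57278850-57279149.
S100a8: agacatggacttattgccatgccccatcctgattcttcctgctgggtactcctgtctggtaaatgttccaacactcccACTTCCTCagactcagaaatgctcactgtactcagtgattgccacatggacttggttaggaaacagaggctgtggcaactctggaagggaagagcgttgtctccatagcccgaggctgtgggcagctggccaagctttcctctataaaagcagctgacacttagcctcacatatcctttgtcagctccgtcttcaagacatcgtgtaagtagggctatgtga
Mmp8: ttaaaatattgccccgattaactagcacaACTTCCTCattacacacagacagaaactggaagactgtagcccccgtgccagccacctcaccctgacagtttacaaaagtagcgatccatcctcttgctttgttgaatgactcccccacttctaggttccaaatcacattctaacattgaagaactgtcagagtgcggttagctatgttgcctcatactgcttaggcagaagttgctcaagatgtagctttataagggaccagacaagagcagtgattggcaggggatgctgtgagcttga
Ctss: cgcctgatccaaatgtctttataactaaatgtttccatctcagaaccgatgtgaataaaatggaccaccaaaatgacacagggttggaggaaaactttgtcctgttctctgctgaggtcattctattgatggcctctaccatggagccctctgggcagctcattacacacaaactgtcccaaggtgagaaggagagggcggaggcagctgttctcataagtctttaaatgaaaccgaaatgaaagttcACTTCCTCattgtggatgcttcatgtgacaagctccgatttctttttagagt
Fcgr4: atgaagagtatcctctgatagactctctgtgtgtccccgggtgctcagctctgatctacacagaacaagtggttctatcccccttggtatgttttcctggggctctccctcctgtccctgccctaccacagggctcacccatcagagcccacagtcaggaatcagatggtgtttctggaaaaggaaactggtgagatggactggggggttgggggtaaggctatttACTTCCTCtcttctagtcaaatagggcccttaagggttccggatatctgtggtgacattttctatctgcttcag
Vav1: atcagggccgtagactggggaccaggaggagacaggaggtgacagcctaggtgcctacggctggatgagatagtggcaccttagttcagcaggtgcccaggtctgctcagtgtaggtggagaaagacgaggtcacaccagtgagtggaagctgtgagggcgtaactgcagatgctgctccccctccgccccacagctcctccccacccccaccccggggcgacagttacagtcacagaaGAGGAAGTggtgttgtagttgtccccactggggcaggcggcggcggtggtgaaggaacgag
The motif began 11 bases before the start in Vav1, 24 in Fcgr4 and 2 in Ctss, and lay farther away in S100a8 and Mmp8, at 172 and 221 bases. Of these genes, Mmp8, a neutrophil collagenase, measured 2.03 and 43.4 FPKM (21.4-fold). Fcgr4, an activating IgG receptor, measured 6.63 and 25.7 FPKM (3.88-fold). Vav1, an exchange factor for Rac, measured 3.87 and 11.9 FPKM (3.07-fold). Fcgr4 and Vav1 are shown for the motif and were chosen after their values were seen.

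The listed ligands that attract leukocytes were all higher in the aneurysms. CC chemokines act mainly on monocytes and T cells, and 5 of 17 were listed, all higher and all by a large difference. Ccl2, the main ligand of Ccr2 on monocytes, measured 4.11 and 75.9 FPKM (18.5-fold). Ccl7, a second ligand of Ccr2, measured 6.74 and 57.1 FPKM. Ccl6 was the most abundant of the group at 97.5 and 612 FPKM. Thus Ccl2 had the largest ratio of the group and Ccl6 the highest level. Ccl9 measured 31.5 and 137 FPKM, and Ccl5 measured 6.24 and 31.3 FPKM.

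CXC chemokines include the ligands that recruit neutrophils through Cxcr2, and 6 of 16 were listed, all higher. Cxcl1 measured 4.36 and 27.3 FPKM (6.26-fold), and Cxcl2 measured 5.35 and 65.3 FPKM (12.2-fold). With Cxcl5, 3 neutrophil ligands were thus listed, at 1.75 to 5.35 FPKM in AngII No AAA and 27.3 to 65.3 FPKM in AngII AAA. Cxcl13, which attracts B cells, differed least, at 27.8 and 66.2 FPKM (2.38-fold). Pf4 and Ppbp, which platelets store, are given with the platelet genes below. Of the 6, Cxcl5 was the only one listed for this comparison alone.

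Of 22 chemoattractant receptors, 9 were listed and all 9 were higher. Cxcr2, the neutrophil receptor for the ligands above, measured 3.13 and 47.6 FPKM (15.2-fold). Ccr1, a receptor for several CC ligands, measured 6.58 and 81.03 FPKM (12.3-fold). Ccr2, the receptor of inflammatory monocytes, measured 4.73 and 25.05 FPKM (5.30-fold). Both a ligand and its receptor were therefore listed for the Ccl2 and Cxcr2 axes. C5ar1, the receptor of the complement fragment C5a, measured 17.4 and 81.1 FPKM, and C3ar1, that of C3a, 14.1 and 54.1 FPKM. Cxcr4, the receptor for Cxcl12, measured 21.7 and 78.6 FPKM and was the only one of the 9 listed for this comparison alone. Ptafr, the receptor of platelet-activating factor, and Cx3cr1, the fractalkine receptor, had log2 ratios of 2.06 and 1.29.

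Interleukins, their receptors and signalling proteins gave 15 listed genes of 42, all higher, with 8 large differences. The interleukin 1 system was listed as agonist, decoy and antagonist together. Beside Il1b and Il1r2, Il1rn, the receptor antagonist, measured 4.51 and 21.96 FPKM (4.87-fold), and Il33, an alarmin of the interleukin 1 family, measured 29.7 and 71.1 FPKM (2.39-fold). In AngII AAA the decoy receptor was the highest of Il1b, Il1r2 and Il1rn, although it was the lowest in AngII No AAA. Il4ra, the receptor chain shared by interleukins 4 and 13, measured 15.3 and 69.9 FPKM. Socs3, a feedback inhibitor of Jak and Stat signalling, measured 20.2 and 63.8 FPKM. Csf2rb, the common chain of the GM-CSF, interleukin 3 and interleukin 5 receptors, measured 8.86 and 35.7 FPKM. Osm, the cytokine oncostatin M, was listed for this comparison alone at 1.95 and 8.87 FPKM, and is named after its value was seen, as is Il1rn.

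Innate pattern receptors and inflammasome genes were listed for 11 of 33, all higher. Cd14, a co-receptor for bacterial lipopolysaccharide, measured 18.7 and 85.8 FPKM, and Tlr4, its signalling partner, 6.68 and 16.8 FPKM. Clec4n, the lectin receptor Dectin-2, measured 3.23 and 40.2 FPKM (12.4-fold). Tlr13, a receptor for bacterial ribosomal RNA, measured 3.71 and 33.00 FPKM (8.89-fold). The lectin receptors Clec4d and Clec4n had the largest ratios of the 11 and Tlr4 the smallest. Tlr7 measured 5.35 and 18.6 FPKM, and Nlrp3, the sensor of the inflammasome that matures interleukin 1 beta, measured 2.16 and 6.17 FPKM. Tlr4 and Nlrp3 were named after their values were seen.

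The phagocyte NADPH oxidase, which makes superoxide, was listed for 6 of 8 genes, all higher. Its membrane subunits Cyba and Cybb measured 33.9 and 124 FPKM and 5.32 and 20.2 FPKM. Its cytosolic subunit Ncf1 measured 11.1 and 73.3 FPKM (6.59-fold), the largest ratio of the 6. Ncf4, another cytosolic subunit, was 3.12-fold higher, and Rac2 is given above. Saline was the lowest library for all 6, and all 6 were listed for AngII AAA vs. Saline, which favours a Saline level far from AngII AAA.

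Platelet and megakaryocyte markers gave 13 listed genes of 21, of which 12 were higher and 1 was lower. Their median log2 ratio was 2.70, and 11 had a large higher difference. Pf4, the granule chemokine platelet factor 4, measured 57.7 and 985 FPKM (17.1-fold). Ppbp, the precursor of platelet basic protein, measured 5.37 and 142 FPKM (26.5-fold). Gp9, a subunit of the receptor for von Willebrand factor, measured 6.64 and 72.97 FPKM (10.99-fold). Genes that platelets carry were thus among the largest differences of the list. Nrgn, a calmodulin-binding protein found in platelets and neurons, measured 13.1 and 171 FPKM. Tubb1, the tubulin of the platelet ring, measured 5.17 and 33.5 FPKM. F13a1, the A chain of the fibrin-crosslinking factor XIII, measured 19.8 and 82.6 FPKM. The lower gene was P2rx1, an ATP-gated channel of platelets and of smooth muscle, at 15.4 and 4.16 FPKM, which was named after its value was seen.

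For 10 platelet genes the Saline level could be read, and it was above AngII No AAA for 6 of them. Ppbp measured 14.1 FPKM in Saline, beside the 5.37 FPKM of AngII No AAA. For Nrgn the Saline value was 41.8 FPKM, and for Tubb1 it was 12.8 FPKM. In sum the 10 genes came to 152 FPKM in Saline, 119 FPKM in AngII No AAA and 1562 FPKM in AngII AAA. AngII No AAA was thus the lowest library for 6 of the 10. Of these 6, Ppbp, Nrgn and Tubb1 were listed between Saline and AngII No AAA, and Tubb1 could be read only for that reason. Gp9, Clec1b and Itga2b were not listed there, and Itga2b measured 2.34 FPKM in Saline and 2.17 FPKM in AngII No AAA. Whether the order differs from that of the macrophage genes was not tested.

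Haem and iron handling gave 5 listed genes of 17, all higher. Hmox1, the enzyme that breaks down haem, measured 60.7 and 1016 FPKM (16.7-fold). Ftl1, the ferritin light chain that stores iron, measured 248 and 848 FPKM (3.42-fold). Slc40a1, the iron exporter ferroportin, measured 2.57 and 16.4 FPKM (6.38-fold). Enzyme, store and exporter were thus higher together. Slc11a1, an iron and manganese transporter of the phagosome, measured 6.29 and 45.99 FPKM, and Lcn2 is given with the neutrophil genes. None of 12 erythroid markers was listed for this comparison, whereas all but 2 of them were listed in a comparison with Saline. Coagulation gave 3 listed genes of 21, all higher. Thbs1, the matrix protein thrombospondin 1, measured 73.3 and 248 FPKM, and F10, coagulation factor X, measured 3.14 and 9.73 FPKM and was listed for this comparison alone.

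Markers of the adrenal cortex, an organ that lies close to the suprarenal aorta, had the highest median ratio among the lists with at least 3 listed genes. Of 19 markers, 11 were listed, all were higher in AngII AAA, and 9 had a large difference. The median log2 ratio was 4.33. Beside Hsd3b1, Cyp21a1, the steroid 21-hydroxylase, measured 2.37 and 88.95 FPKM (37.6-fold). Cyp11b1, the 11-beta-hydroxylase that makes corticosterone, measured 3.11 and 71.1 FPKM (22.9-fold). Cyp11a1, which cuts the side chain of cholesterol, measured 2.57 and 69.9 FPKM (27.2-fold). Star, which carries cholesterol into mitochondria, measured 3.31 and 66.5 FPKM (20.1-fold). These 5 genes of the path from cholesterol to corticosterone had 1.99 to 3.31 FPKM in AngII No AAA and 66.5 to 129.8 FPKM in AngII AAA. Mc2r, the ACTH receptor, measured 1.29 and 14.5 FPKM, and it is named after its value was seen.

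Scarb1 and Soat1, which handle cholesterol in macrophages as well, had the smallest ratios of the 11, at 2.65- and 2.88-fold. The 11 genes summed to 54.6 and 597 FPKM. No listed adrenal marker was at 0 in either library. For the 9 with a readable Saline level the sums were 34.4 FPKM in Saline, 47.8 FPKM in AngII No AAA and 538 FPKM in AngII AAA. Scarb1 alone made up 13.5 FPKM of the Saline sum and 19.7 FPKM of the AngII No AAA sum. Saline was below AngII No AAA for 7 of the 9 and above it for 2. Both libraries thus held these transcripts at low levels beside AngII AAA. The part of adrenal tissue in the other differences of AngII AAA was not tested. Of the adrenal medulla and sympathetic list, 1 of 12 was listed, which was Chga, the granule protein chromogranin A, at 17.2 and 46.6 FPKM. The Chga level in Saline was 41.96 FPKM, close to that of AngII AAA.

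The SF-1 motif AAGGTCA, which binds the master regulator of steroid-making cells, was searched on both strands in the 6 adrenal genes with a promoter window and was found in Akr1b7 alone, against 5.38% of all genes. The Akr1b7 promoter (chr6:34412112-34412411, plus strand, GRCm38.p6) is shown with the motif in capitals, which read TGACCTT on the gene's strand.
Akr1b7: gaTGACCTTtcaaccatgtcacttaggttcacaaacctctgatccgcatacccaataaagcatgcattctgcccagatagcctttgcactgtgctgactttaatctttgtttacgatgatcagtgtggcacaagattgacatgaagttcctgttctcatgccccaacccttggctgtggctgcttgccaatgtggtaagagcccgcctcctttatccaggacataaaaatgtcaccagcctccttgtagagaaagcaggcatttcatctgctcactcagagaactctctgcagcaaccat

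Contractile genes of smooth muscle differed in the other direction. Of 25 smooth muscle markers, 10 were listed and all 10 were lower in AngII AAA, against 21.0% of all listed genes. The median log2 ratio was -1.70, and the range was -2.26 to -1.42. Acta2, the smooth muscle alpha actin, measured 926 and 304 FPKM (3.04-fold lower). Tagln, the actin-binding protein transgelin, measured 904 and 271 FPKM (3.34-fold lower). Myh11, the smooth muscle myosin heavy chain, measured 279 and 76.6 FPKM (3.64-fold lower). These and Cnn1 were the most abundant smooth muscle genes of the list, at 3.04- to 4.80-fold. Npnt, the matrix ligand nephronectin, measured 83.9 and 23.7 FPKM, and Itga8, the integrin chain that binds it, measured 83.4 and 31.1 FPKM. Myocd, the coactivator of contractile genes, measured 19.7 and 7.10 FPKM (2.78-fold lower), and is named after its value was seen.

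Of the 10, Acta2, Tagln, Myh11, Cnn1, Npnt and Myocd were listed for this comparison alone. The other 4, Itga8, Lmod1, Synpo2 and Kcnmb1, were also listed against Saline, and for these the Saline sum of 369 FPKM was above both 239 FPKM in AngII No AAA and 77.7 FPKM in AngII AAA. Saline was the highest library for each of the 4, and their listing for AngII AAA vs. Saline favours a Saline level far from AngII AAA. All 10 listed genes summed to 2721 and 816 FPKM. The macrophage, neutrophil, platelet and adrenal sums were higher in AngII AAA, and their part in the lower smooth muscle values was not tested. The CArG box, the motif of serum response factor, was in none of the 7 smooth muscle promoter windows at hand and in 1.81% of all genes, which says only that these letters are not within this window.

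**Figure D4:**
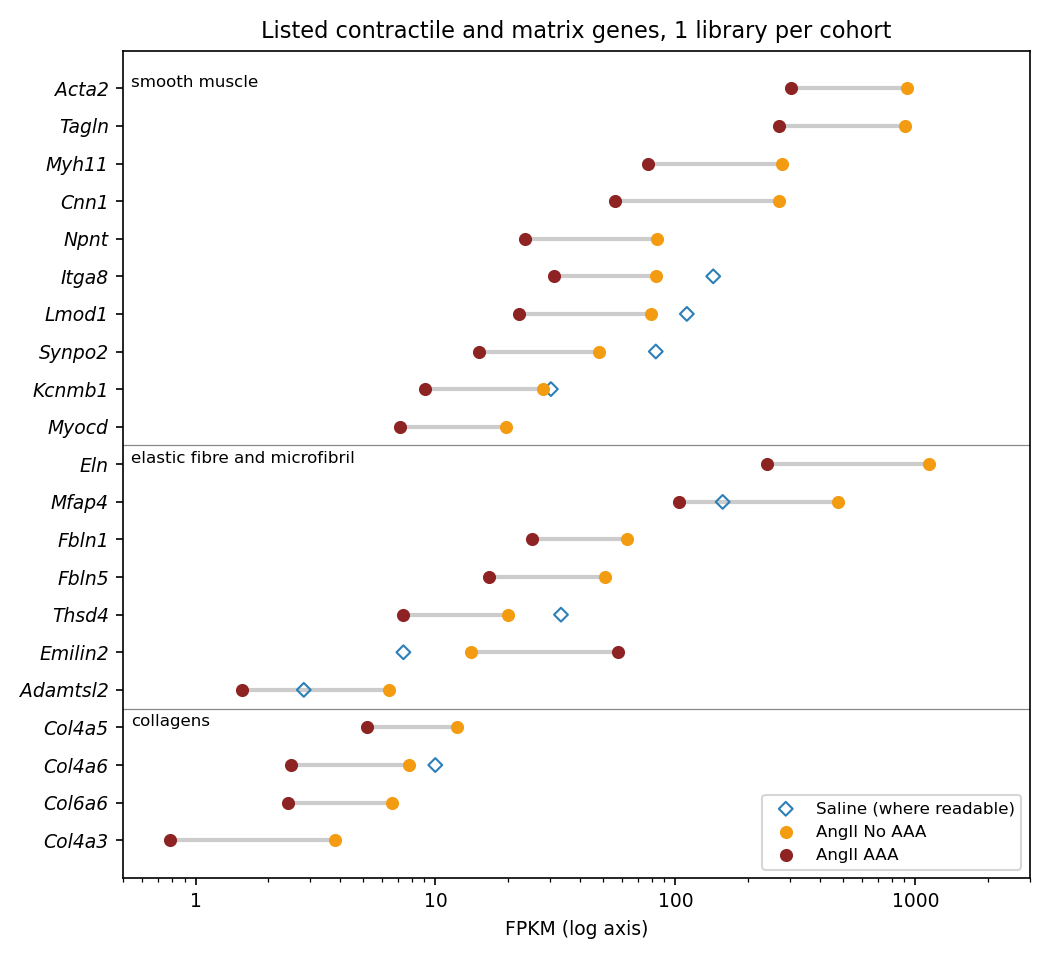
FPKM (log axis) of listed smooth muscle, elastic fibre and collagen genes in AngII No AAA (orange) and AngII AAA (dark red), 1 library each, with the Saline level (blue diamond) where it could be read. All genes but Emilin2 have the lower value in AngII AAA, and Eln spans 242 to 1144 FPKM.

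Genes of the elastic fibre gave 7 listed members of 23, of which 6 were lower and 1 was higher. Mfap4, a microfibril-associated protein that binds elastin, measured 476 and 104 FPKM (4.60-fold lower). Fbln5, which links elastin to cells, measured 50.8 and 16.8 FPKM (3.03-fold lower). Fbln1 measured 63.1 and 25.3 FPKM (2.50-fold lower). With Eln, the core and several partners of the elastic fibre were thus lower in the aneurysm. Thsd4, a microfibril protein of the ADAMTS-like family, measured 20.03 and 7.30 FPKM, and Adamtsl2 measured 6.39 and 1.56 FPKM. The exception was Emilin2, a glycoprotein of elastic tissue and clots, at 14.1 and 57.7 FPKM (4.09-fold higher). Mfap4 had 157 FPKM in Saline, so AngII No AAA was the highest of the 3 libraries for it, whereas for Thsd4 the highest was Saline, at 33.4 FPKM.

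Collagens gave 4 listed genes of 33, all lower, and none of them was a chain of a fibrillar collagen. Beside Col4a3, the basement membrane chains Col4a5 and Col4a6 measured 12.3 and 5.17 FPKM and 7.79 and 2.50 FPKM. Col6a6, a chain of microfibrillar collagen VI, measured 6.62 and 2.42 FPKM. None of the 4 was above 12.3 FPKM in either library.

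Metalloproteinases and their relatives were split, with 4 higher and 2 lower of 6 listed out of 31. Mmp8 and Mmp9, the higher ones with the largest ratios, are also neutrophil markers. Adam8, a sheddase of leukocytes, measured 3.99 and 37.4 FPKM (9.37-fold), and Adam12, a sheddase of mesenchymal cells, measured 6.10 and 15.5 FPKM (2.55-fold). Adamts8 and Adamtsl2 were lower. Protease inhibitors gave 3 higher and 1 lower of 24. Wfdc17, a secreted whey acidic protein-type protein of myeloid cells, measured 45.03 and 263 FPKM, and Serpinb1a, an inhibitor of neutrophil elastase, 1.30 and 12.3 FPKM, whereas Serpina1d, an alpha-1-antitrypsin of the liver, measured 12.6 and 1.95 FPKM.

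Proteoglycans and other matrix proteins were also split, with 4 higher and 5 lower of 9 listed out of 32. Spp1, the secreted phosphoprotein osteopontin, measured 33.3 and 530.4 FPKM (15.9-fold). Srgn, serglycin of leukocyte granules, measured 81.7 and 734 FPKM (8.98-fold). Prg4, the lubricating protein lubricin, measured 80.7 and 335 FPKM, and Vcan, the large proteoglycan versican, 17.4 and 51.8 FPKM. The higher members thus included products of leukocytes. The lower members included small leucine-rich proteoglycans. Fmod, a collagen-binding proteoglycan, measured 41.7 and 9.66 FPKM, Optc measured 14.9 and 1.95 FPKM, and Podn measured 38.8 and 14.4 FPKM. Itgbl1, an integrin beta-like protein, measured 44.6 and 10.8 FPKM. Optc and Podn were named after their values were seen.

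Signals that pattern the wall gave few listed genes and no common direction. Of 39 modulators of Wnt, BMP and TGF-beta, 2 were higher and 3 lower. Sost was the lowest by ratio, and Sfrp4, another secreted Wnt inhibitor, measured 289 and 87.8 FPKM (3.30-fold lower). Chrdl1, a BMP antagonist, measured 29.1 and 10.8 FPKM. The higher genes were Tgfb1 at 30.5 and 75.5 FPKM and Tgfbi, a matrix protein induced by TGF-beta, at 37.4 and 107 FPKM. The Wnt inhibitors differed in their Saline levels: Sost was highest in Saline, at 139 FPKM, and Sfrp4 was lowest there, at 24.3 FPKM. Of 37 IGF, CCN and growth factor genes, 2 were higher and 2 lower. Igfbp2 measured 89.9 and 14.4 FPKM (6.22-fold lower) and Igfbp3 measured 7.64 and 30.95 FPKM (4.05-fold higher), so these carriers of insulin-like growth factors had opposite directions. Nov, a CCN family matrix protein, measured 121 and 30.6 FPKM, and Ednrb, an endothelin receptor, 15.9 and 56.2 FPKM.

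Histone genes, the longest list, had the largest number of members listed for this comparison alone, though not the largest share. Of 53 histone genes, 21 were listed, all 21 were higher, 11 had a large difference, and 12 were listed for this comparison alone. All 21 histone genes lie in the Hist1 clusters, whose messages are made during DNA replication and lack a poly(A) tail. Hist1h4d, an H4 gene, measured 164 and 452 FPKM (2.75-fold). Hist1h1e, an H1 linker histone, measured 111 and 341 FPKM (3.08-fold), and Hist1h1c measured 62.8 and 243 FPKM (3.86-fold). These 3 were the most abundant histone genes, and their ratios lay under the median of the group. Hist1h2bb, the only listed H2B gene, had the largest ratio, at 10.99 and 126 FPKM (11.5-fold), and is named after its value was seen. By type, 5 were H1, 3 H2A, 1 H2B, 6 H3 and 6 H4 genes, so linker and core histones were both present. Core histone genes are near-identical copies, and the reads of single copies cannot be separated with certainty.

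In the coordinates of the authors (mm9), 17 of the listed histone genes formed an unbroken run on chromosome 13, chr13:23627286-23856281, in which each listed neighbour lay within 200000 bases of the next. The other 4 formed a second run on the same chromosome, chr13:21809496-21904019. Runs of at least 4 listed genes with such gaps numbered 9 over the genome and held 55 genes, and each run held higher genes alone, against 79.0% higher over the whole list. Besides the histone runs they included Cxcl5, Ppbp, Pf4, Cxcl1 and Cxcl2 on chromosome 5, Fcgr2b, Fcgr4, Fcgr3 and Fcer1g on chromosome 1, and Slfn9, Slfn2, Slfn1 and Slfn4 on chromosome 11. The second longest run, on chromosome 17, was of mixed genes: Cyp21a1, D17H6S56E-5, G6b, Ly6g6c, Ly6g6d, Lst1 and Ltb. The other 3 held Cd300 genes with AF251705, Slc9a3r1 and Fdxr, CC chemokine genes with Wfdc17, and Trem genes with B430306N03Rik. Neighbouring genes of 1 family can share sequence, so these runs are not separate measurements.

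Cell cycle genes were few beside the histones, with 4 of 32 listed, all higher and none by a large difference. Mki67, a marker of dividing cells, measured 13.2 and 36.6 FPKM, and Top2a, a topoisomerase of replication and mitosis, 4.37 and 14.2 FPKM. Ccna2, a cyclin of S phase and mitosis, measured 4.57 and 14.6 FPKM, and Tyms, which makes thymidylate, 2.07 and 6.53 FPKM, and both were listed for this comparison alone. Their ratios of 2.76- to 3.25-fold were below the median histone ratio, a log2 of 2.04.

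Adhesion molecules of leukocytes gave 12 listed genes of 27, 10 higher and 2 lower. Selplg, the selectin ligand PSGL-1, measured 15.3 and 87.1 FPKM (5.71-fold). Itgam, the integrin chain CD11b of myeloid cells, measured 12.5 and 72.5 FPKM (5.81-fold). Cd44, a hyaluronan receptor, measured 24.8 and 88.4 FPKM, and Cd52, a surface glycoprotein of leukocytes, 50.2 and 256 FPKM. These are surface molecules of leukocytes. The lower genes were the integrin chains Itga8 and Itga9, and Itga9 measured 37.7 and 15.01 FPKM. Itga9 was named after its value was seen.

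Lysosome and lipid genes were listed for 6 of 24, all higher. Lgmn, the protease legumain, measured 68.9 and 229 FPKM, Ctsc, which activates granule proteases, 35.7 and 106 FPKM, and Pla2g7, a lipoprotein-associated phospholipase, 11.9 and 71.96 FPKM. Msr1, a scavenger receptor for modified lipoproteins, measured 2.06 and 23.2 FPKM (11.2-fold), the largest ratio of the 6. Eicosanoid and nitric oxide genes were listed for 5 of 21, all higher, and they included lipoxygenase and cyclooxygenase genes. Alox5ap, the partner of 5-lipoxygenase, measured 20.2 and 113 FPKM, Alox5 itself 4.25 and 11.96 FPKM, and the cyclooxygenase gene Ptgs2 6.19 and 23.9 FPKM.

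Interferon response genes were listed for 7 of 33, all higher. Ifitm1, an interferon-induced membrane protein, measured 5.90 and 70.9 FPKM (12.02-fold). Slfn2 and Slfn1 of the Schlafen family measured 14.9 and 62.5 FPKM and 4.68 and 39 FPKM. Irf5 and Irf8, transcription factors of macrophages, were 2.96- and 2.73-fold higher. Irf8 was named after its value was seen. Complement gave 3 of 23, all higher: the receptors C5ar1 and C3ar1 and properdin (Cfp), which measured 35.9 and 105 FPKM. Glycolysis and hypoxia gave 4 of 22, all higher. Hif1a, the oxygen-sensitive transcription factor, measured 25.9 and 67.5 FPKM, and the glucose transporter gene Slc2a1 measured 14.01 and 39.9 FPKM. The lactate exporter gene Slc16a3 was 3.68-fold higher, and Egln3, an oxygen sensor that is itself induced by hypoxia, was 3.97-fold higher.

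Small numbers of genes were listed from the remaining lists. The B cell receptor chains Cd79a and Cd79b were listed of 13 B cell markers, at 3.12 and 12.95 FPKM and 3.46 and 21.2 FPKM. Hdc, which makes histamine, was the only one of 10 mast cell markers, at 4.32 and 14.6 FPKM. Cd79a, Cd79b and Hdc were thus higher in AngII AAA, and the other B cell and mast cell markers were not listed for this comparison. Glycam1, a selectin ligand of lymph node venules, was the only one of 21 endothelial markers, at 7.23 and 33.5 FPKM, and was at 0 in Saline. Myc, at 15.5 and 44.9 FPKM, was the only one of 30 immediate early and stress genes.

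Among the lower genes, Pi16 and Clec3b were the listed 2 of 15 fibroblast and adventitia markers. Pi16, a marker of adventitial fibroblasts, measured 177 and 46.9 FPKM, and Clec3b, tetranectin, 97.7 and 22.4 FPKM. The liver genes Alb, Apoa1 and Serpina1d were the listed 3 of 16, and Alb, albumin, measured 84.3 and 33.5 FPKM while Apoa1, the apolipoprotein of HDL, measured 63.7 and 20.5 FPKM. Striated muscle gave Casq1, the calcium store of skeletal muscle, at 8.84 and 1.504 FPKM, Dusp27, at 5.46 and 1.40 FPKM, and Tnnt2, cardiac troponin T, at 7.97 and 0.508 FPKM. Of 33 ion channel and calcium genes, Casq1, P2rx1 and Kcnmb1, a subunit of the calcium-activated potassium channel at 28.2 and 9.08 FPKM, were listed and all were lower. Zbtb16, a transcription factor induced by glucocorticoids, was the only one of 23 clock and glucocorticoid genes, at 51.98 and 17.7 FPKM. No gene was listed of the adipocyte, Schwann cell and neuron, kidney tubule, mesothelium and housekeeping lists, whose levels could therefore not be compared.

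A Saline level could be placed beside both angiotensin II libraries for 406 of the 600 genes. The values of a library in 2 lists differed by a constant, 0.968 for AngII AAA (over 385 genes) and 0.914 for AngII No AAA, which was multiplied out. Saline was the lowest of the 3 libraries for 315 genes, lay between the others for 55, and was the highest for 36. Of the 265 higher genes that were also listed for AngII AAA vs. Saline, Saline was the lowest library for 233. Of the 38 lower genes of that kind, Saline was the highest for 32. Saline could be read only for genes that a list against Saline holds, mostly through AngII AAA vs. Saline, which favours a Saline level far from AngII AAA, and 71 of the 126 lower genes have none. In the 79 higher genes of all 3 lists, the median log2 ratio to Saline was 1.63 for AngII No AAA and 3.51 for AngII AAA. These genes were listed because they differed from Saline, and the ratios only describe them.

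**Figure D5:**
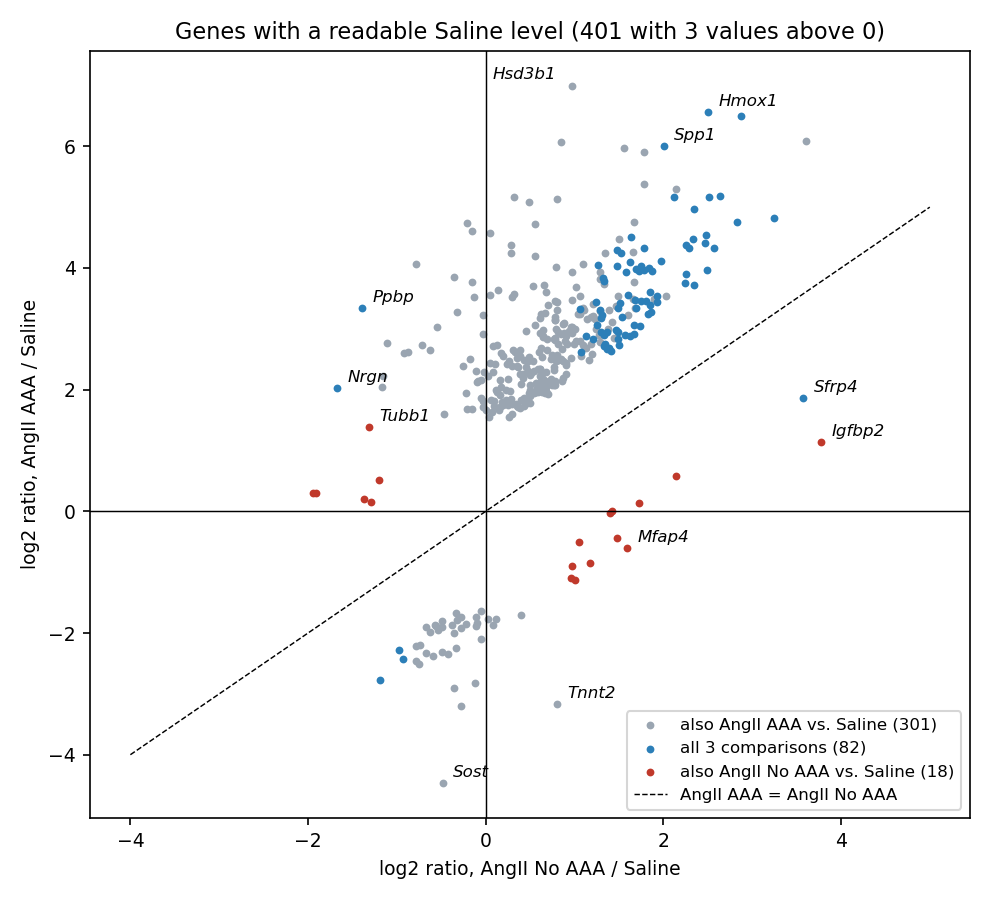
Log2 ratio to Saline of AngII No AAA (horizontal) and AngII AAA (vertical), 1 point per gene for the 401 genes with values above 0 in all 3 libraries, coloured by the lists that hold the gene (red for AngII No AAA vs. Saline). The dashed line marks equal values in the angiotensin II libraries. Most points lie above the dashed line with both ratios above 0, and the 18 red points are by their choice mostly nearer to a ratio of 0 for AngII AAA than for AngII No AAA.

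The 20 genes that were listed for both comparisons of AngII No AAA, and not for AngII AAA vs. Saline, are described next. Of these, 7 were higher and 13 lower in AngII AAA than in AngII No AAA, against 79.0% higher over the whole list. Saline was nearer to AngII AAA than to AngII No AAA on the log scale for 15 of the 18 that had 3 values above 0, an order that follows largely from how these genes were chosen. Igfbp2 measured 6.58 FPKM in Saline, 89.9 in AngII No AAA and 14.4 in AngII AAA. Cyp2f2, a cytochrome P450, measured 10.1, 44.6 and 15.02 FPKM in the same order. Snora81 measured 1059, 3515 and 1158 FPKM. On the other side, Scarna13, a small Cajal body RNA, measured 246, 65.2 and 302 FPKM, and Tomm5, a subunit of the mitochondrial import pore, 50.1, 13.02 and 61.6 FPKM. Cyp2f2, Scarna13 and Tomm5 were named after their values were seen.

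The genes in no list numbered 353. A family picked after the values were seen was the ribosomal proteins, with 8 listed, among them Rps3a1, Rps7, Rps16, Rpl6, Rpl18, Rpl36al and Gnb2l1 (Rack1). All 8 were higher in AngII AAA, with log2 ratios from 1.32 to 1.77, and 6 were listed for this comparison alone. Rps16 measured 116 and 314 FPKM, and Rps7 measured 74.5 and 186 FPKM. Ribosomal protein genes have many processed copies in the genome, among which reads can be shared.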

How the data were processed

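Total RNA of the suprarenal aorta, pooled over the animals of a cohort, was depleted of ribosomal RNA and sequenced as 1 library per cohort. Per the labels and the study's methods, the authors aligned reads to mm9 with HISAT2 and made FPKM values with Cufflinks and Cuffdiff, after FastQC. Tool versions are not given in the sources used here. They deposited 3 tables, 1 for each pair of cohorts, limited to entries with an unadjusted p-value under 0.05. Genes outside a table were not analysed here. The tables also hold the authors' log2 fold changes, test statistics, p-values and q-values, which were not used.

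Log2 ratios were recomputed from FPKM with no pseudocount and no filter on low values (Python 3.11.15, pandas 2.3.3, numpy 2.4.6, matplotlib 3.10.9). Entries were matched between tables by their identifier, and Saline values were scaled by the constant ratio of the shared library's values. The ratios, the counts of genes and the look-up of gene lists were tested on simulated data. The matching between tables and the scaling of Saline values were not. With 1 library per cohort, differences have no replicate check, and 4-fold was used as a size rule. Depth behind single FPKM values is unknown.

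Members, the 47 gene lists and the motifs were chosen with earlier results of these data known. Named were the 15 largest finite ratios in each direction among genes of this comparison alone, entries at 0, up to 6 members of each list with the highest FPKM (all members where fewer than 3 were listed), the 5 highest genes of each library, the extreme ratios and microRNAs. A gene named beyond this rule was chosen after its values were seen. Promoters and microRNAs came from RefSeq (GRCm38.p6) by symbol, and 558 of 600 symbols were found there. The CArG box was searched by its usual degenerate form. Coordinates of genes are those of the authors. A few listed genes are not reported here by name.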

Additional observations from a re-analysis of the deposited data

How the results depend on the processing

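The number of genes lower by at least 4-fold was 38, and it was 21 with a pseudocount of 1 FPKM and 19 with at least 5 FPKM required in the higher library. At 2-fold in place of 4-fold, 474 genes counted as higher and 126 as lower, and at 8-fold 54 and 14 did. The counts at 2-fold and 8-fold include the genes at 0 in 1 library, 5 higher and 11 lower. The 34 other alternatives tried stayed within 1.5 times the reported values. They covered the counts over all genes, genes of this comparison alone, the ratio taken through Saline and the position of Saline. For the ratio through Saline and the position of Saline this was largely fixed in advance, because the lists hold the same libraries up to a constant. A pseudocount likewise cannot change which genes are higher or lower. Of the values for gene lists, 613 moved little and 2 moved with a pseudocount of 1 FPKM, among them the ratio of Tnnt2, the single listed cardiac gene, to a log2 of -2.57. None changed direction. No paired analysis was possible because each cohort has 1 library. That also leaves no library to leave out, no error between animals and no test. Genes that did not pass the threshold of the authors were not analysed here.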
